A study of Mus musculus with 16 samples.

Results

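S100a5, Pcp4l1, Plcxd3 and Lrrc3b are 4 genes of mouse olfactory sensory neurons (OSNs) whose RNA is set by the long-term activity of these cells, S100a5 being also the gene behind the reporter used to sort them. They were taken by gene symbol from the 19505 named genes on the array, and each had a single probe set, so none had to be chosen among several. Their signals were read in all 16 arrays of the series. The question of the series was which neurons respond to isoamyl acetate, an ester with a banana smell. The values asked for here are how the 4 genes stand in both sorted fractions and whether the odor moved them.

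All mice carried the S100a5-tauGFP reporter on C57BL/6, and the vehicle animals carried it too. They were of both sexes and 7 to 12 weeks old. Each of the 24 mice was housed alone in a clean-air chamber for 40 h, with air flowing at 3.1 L/min, and from 26 h on received pulses of 10 s every 20 min, of filtered air in the vehicle group and of isoamyl acetate in the odor group. Dissociated olfactory mucosa was sorted by GFP in pools of 3 mice, and both fractions of every pool were put on an array, 1 titled GFP+ and the other GFP-. Agent and titled fraction make 4 groups, with 4 libraries each from 8 pools in all. Replicates of a group are separate pools of mice. The labels do not say how many copies of the reporter allele the mice carried, or whether that allele still makes S100a5 RNA.

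The labels disagree on which fraction is which. In 16 of 16 libraries the cell type field carries the GFP sign opposite to the title. S100a5 itself went against the titles, with higher signal in the library titled GFP- in 8 of 8 pools. Libraries are called by their titles throughout, and every difference between the sorts is the library titled GFP+ minus the library titled GFP-. If the cell type field is the right one, each of these directions turns around.

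S100a5 encodes a small calcium-binding protein of the S100 family, made in mature OSNs, and its expression is known to rise with odor stimulation and to fall when a nostril is closed. Pcp4l1 encodes a small protein related to Pcp4, a regulator of calmodulin. Plcxd3 encodes a protein with the X domain of phosphatidylinositol-specific phospholipase C, and Lrrc3b a membrane protein with leucine-rich repeats. In an OSN, odorant binding opens cyclic nucleotide-gated channels, calcium enters, and calcium and cAMP signals set the transcription of a group of activity-dependent genes over hours to days. GFP driven through S100a5 is therefore used as a lasting record of recent activity.

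The promoters of the 4 genes are shown because their RNAs differed together between the sorts. They are from RefSeq on build GRCm38.p6, run 5′ to 3′ on the strand of the gene, and cover 250 bases before to 50 bases after the annotated start. They lie at chr3:90608272-90608571 on the plus strand for S100a5, chr1:171196219-171196518 on the minus strand for Pcp4l1, chr15:4375241-4375540 on the plus strand for Plcxd3 and chr14:15438938-15439237 on the minus strand for Lrrc3b. Capitals mark a match to 1 of 6 searched motifs.
S100a5: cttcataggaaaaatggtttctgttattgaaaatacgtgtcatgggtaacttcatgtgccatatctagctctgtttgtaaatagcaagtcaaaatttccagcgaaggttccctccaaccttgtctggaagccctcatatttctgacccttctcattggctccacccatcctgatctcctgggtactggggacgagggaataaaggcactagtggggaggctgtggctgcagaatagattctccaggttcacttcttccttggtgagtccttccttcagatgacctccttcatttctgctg
Pcp4l1: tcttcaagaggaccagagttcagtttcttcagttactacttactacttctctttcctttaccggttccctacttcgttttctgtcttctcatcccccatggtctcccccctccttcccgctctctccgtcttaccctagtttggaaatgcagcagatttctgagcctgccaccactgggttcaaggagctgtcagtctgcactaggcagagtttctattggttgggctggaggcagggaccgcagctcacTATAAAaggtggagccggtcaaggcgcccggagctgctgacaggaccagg
Plcxd3: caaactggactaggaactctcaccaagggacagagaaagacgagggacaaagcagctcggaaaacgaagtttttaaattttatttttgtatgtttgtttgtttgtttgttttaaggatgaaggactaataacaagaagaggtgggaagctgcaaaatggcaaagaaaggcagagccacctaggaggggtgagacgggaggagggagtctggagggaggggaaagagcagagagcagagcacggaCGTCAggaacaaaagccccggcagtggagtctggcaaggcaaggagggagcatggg
Lrrc3b: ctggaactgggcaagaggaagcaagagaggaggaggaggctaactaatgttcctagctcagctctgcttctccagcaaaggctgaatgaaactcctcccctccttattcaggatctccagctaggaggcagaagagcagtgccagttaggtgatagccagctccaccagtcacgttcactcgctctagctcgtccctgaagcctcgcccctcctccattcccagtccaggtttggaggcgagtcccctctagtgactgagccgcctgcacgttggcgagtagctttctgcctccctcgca

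The motifs were searched on both strands. They were the full cAMP response element TGACGTCA, its partial site TGACG (which also lies inside the full element), the core of the EBF (Olf-1) site (TCCC and GGGA with any 2 bases between them), the AP-1 site TGANTCA, the homeodomain core TAATTA and the TATA box TATAAA. Pcp4l1 held TATAAA at bases 251 to 256 of the window, which is a motif found in 13.6% of 32851 RefSeq promoters of the same length. This match lies from the annotated start on and not before it, and whether it acts as a TATA box was not tested. Plcxd3 held the partial cAMP site on the minus strand, printed as CGTCA, at bases 245 to 249, and 20.8% of all promoters held that motif. The windows of S100a5 and Lrrc3b held none of the 6. The other 4 motifs were found in 0 of the 4 windows, and in 1.79% (full cAMP element), 0.904% (EBF core), 7.81% (AP-1) and 5.29% (homeodomain core) of all promoters. GC content was 46.3% for S100a5, 53.3% for Pcp4l1, 49.3% for Plcxd3 and 57.0% for Lrrc3b, against a median of 52.7%. The 4 promoters had no motif of this search in common.

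The first principal component of the arrays held 74% of the variance, and its relation to the sort was not tested. All values are deposited log2 signals, so that 1 unit is a factor of 2. Array medians ran from 6.42 to 6.52 in libraries titled GFP- and from 6.79 to 6.90 in libraries titled GFP+. Markers of several other cell types were higher in libraries titled GFP+. For macrophages and neutrophils 21 of 21 measured markers were called higher in vehicle and 19 of 21 in odor, and the log2 of their summed signal was 10.15 to 11.47 in vehicle titled GFP-, 18.88 to 19.35 in vehicle titled GFP+, 10.41 to 11.93 in odor titled GFP- and 18.75 to 19.97 in odor titled GFP+. For microvillar cells 10 of 10 were higher in both, for sustentacular cells 10 of 12 in both, and for globose basal cells and the cell cycle 9 of 10 in both. Immature OSN markers were higher in 10 of 17 in vehicle (median difference 1.02) and in 9 of 17 in odor (median 1.07). In vehicle 0 of 6 endothelial, 0 of 6 horizontal basal, 0 of 4 ensheathing glia and 1 of 5 fibroblast markers were called higher. In odor these counts were 1, 1, 0 and 1. Many of these markers were too dim to be read. In libraries titled GFP+ of either agent, 5, 4, 2 and 3 of them, in the same order, were never above the median of the negative control probe sets. Called lower in the lists named so far were 1 immature OSN marker in vehicle and 1 horizontal basal marker in each agent. Among all tested probe sets 10.2% were called higher and 7.16% lower in vehicle, and 11.0% higher and 9.86% lower in odor. Of 23 measured markers of mature OSNs, 0 were called higher and 4 lower in vehicle, and 0 higher and 5 lower in odor. Their summed log2 signal was 21.72 to 21.80 in vehicle titled GFP-, 21.46 to 21.64 in vehicle titled GFP+, 21.70 to 21.83 in odor titled GFP- and 21.27 to 21.67 in odor titled GFP+. These are bulk samples, in which fewer cells of a type and less RNA per cell cannot be told apart, and the part of the other cells in the differences described for the 4 genes was not tested beyond the values set relative to the mature OSN markers.

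S100a5, Pcp4l1 and Lrrc3b were above the 95th percentile of the negative control probe sets, which was 9.39 to 10.09 across arrays, in 16 of 16 libraries. Plcxd3 was above it in 0 of 16. It was above the median of the negative controls, 5.15 to 5.67, in 16 of 16, so that its differences were read near the background of the array. Levels of different genes come from different probe sets and are not compared with each other.

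S100a5 was lower in the libraries titled GFP+ by a mean log2 difference of -1.22 ± 0.22 (SD, n = 8 pools), which puts the library titled GFP- 2.32-fold above its partner. In vehicle titled GFP-, replicates 1 to 4 read 16.51, 16.59, 16.14 and 16.33 (mean 16.39 ± 0.20, SD, n = 4), and in vehicle titled GFP+ they read 15.66, 15.55, 14.69 and 14.95 (15.21 ± 0.47). In odor titled GFP- they read 16.83, 16.95, 16.62 and 16.58 (16.75 ± 0.18), and in odor titled GFP+ 15.46, 15.94, 15.23 and 15.34 (15.49 ± 0.31). Every library titled GFP- stood above every library titled GFP+, across both agents. The lowest signals, 14.69 and 14.95, were vehicle libraries titled GFP+. The limma difference was -1.18 (SE 0.21, adjusted p = 0.000442, Benjamini-Hochberg over 22206 probe sets) in vehicle and -1.25 (SE 0.21, adjusted p = 0.000222) in odor. From pool to pool the difference ran from -1.45 to -0.86.

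Pcp4l1 had the largest difference of the 4 genes, a mean of -1.76 ± 0.51 (SD, n = 8 pools), or 3.39-fold. In vehicle titled GFP-, replicates 1 to 4 read 15.13, 15.49, 15.35 and 15.43 (15.35 ± 0.16), and in vehicle titled GFP+ 13.89, 14.30, 12.99 and 13.74 (13.73 ± 0.55). In odor titled GFP- they read 15.78, 15.81, 15.13 and 15.84 (15.64 ± 0.34), and in odor titled GFP+ 13.36, 14.63, 13.14 and 13.81 (13.73 ± 0.66). The 8 libraries titled GFP- again stood above all 8 titled GFP+. The limma difference was -1.62 (SE 0.30, adjusted p = 0.00064) in vehicle and -1.90 (SE 0.30, adjusted p = 0.000117) in odor. Pool 2 of each agent showed the smallest difference of its agent, -1.19 in both, and the library titled GFP+ of that pool was the highest of its group, while vehicle pool 3 reached -2.36 and odor pool 1 -2.42.

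Plcxd3 differed by -0.98 ± 0.49 (SD, n = 8 pools), or 1.97-fold, with the widest spread relative to its size. In vehicle titled GFP-, replicates 1 to 4 read 8.51, 8.49, 8.18 and 8.48 (8.42 ± 0.16), and in vehicle titled GFP+ 6.96, 7.13, 7.35 and 7.89 (7.33 ± 0.40). In odor titled GFP- they read 8.74, 8.90, 7.86 and 8.36 (8.46 ± 0.46), and in odor titled GFP+ 7.28, 7.84, 7.76 and 7.48 (7.59 ± 0.26). The sorts did not overlap within vehicle or within odor. They did overlap across the 8 and 8 libraries, since odor titled GFP- replicate 3 lay just below vehicle titled GFP+ replicate 4. The limma difference was -1.09 (SE 0.23, adjusted p = 0.00206) in vehicle and -0.87 (SE 0.23, adjusted p = 0.00993) in odor. Odor pool 3 had a difference of only -0.09, and the other 7 pools lay between -1.56 and -0.59.

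Lrrc3b differed by -1.53 ± 0.31 (SD, n = 8 pools), or 2.88-fold, on a background of large differences from pool to pool. In vehicle titled GFP-, replicates 1 to 4 read 13.67, 14.75, 13.72 and 14.65 (14.20 ± 0.58), and in vehicle titled GFP+ 12.14, 13.75, 11.67 and 13.12 (12.67 ± 0.94). In odor titled GFP- they read 14.22, 15.81, 14.02 and 13.86 (14.48 ± 0.90), and in odor titled GFP+ 12.42, 14.30, 12.68 and 12.40 (12.95 ± 0.91). The sorts overlapped in both agents, through pool 2, whose library titled GFP+ was the highest of its group each time. Without the pairing of the 2 libraries of a pool, the limma difference was -1.52 (SE 0.52, adjusted p = 0.0525) in vehicle, which missed the threshold, and -1.53 (SE 0.52, adjusted p = 0.0448) in odor. With the pool as a block, the same differences had an adjusted p of 7.11e-05 in vehicle and 6.33e-05 in odor. The 2 libraries of a pool come from the same mice, so this pairing belongs to the design, and Lrrc3b was the only one of the 4 genes whose call turned on it.

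**Figure D1:**
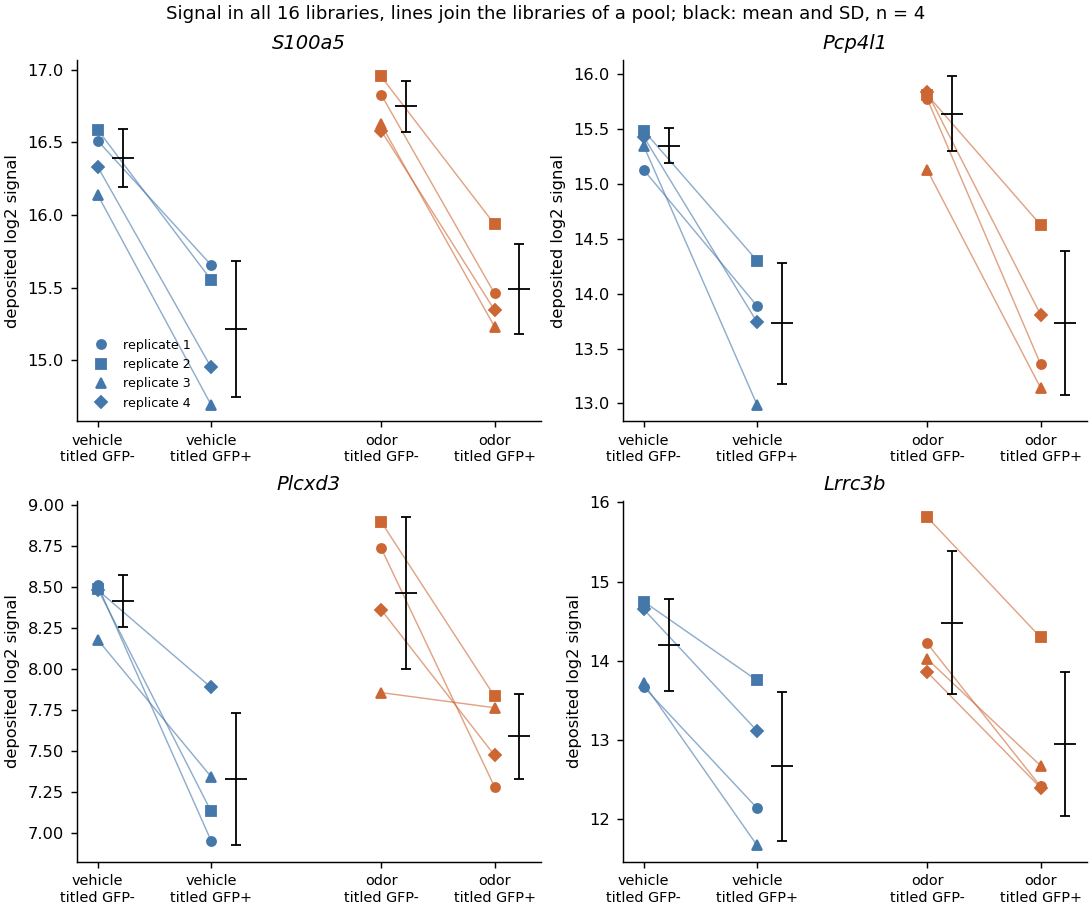
Deposited log2 signal (vertical axis) of the 4 genes in each of the 16 libraries, with 1 panel a gene and the 4 groups on the horizontal axis; points are libraries, lines join the fractions of a pool, and black bars give the group mean and SD. For S100a5 and Pcp4l1 every library titled GFP- stands above every library titled GFP+, while Lrrc3b spreads widely within each group.

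In limma, then, 3 of the 4 genes were called lower in libraries titled GFP+ in vehicle, where 7.16% of all tested probe sets were called lower and 10.2% higher, and 4 of 4 in odor, where 9.86% were called lower and 11.0% higher. The groups of S100a5, Pcp4l1 and Plcxd3 did not overlap in either agent, a separation in this direction that 12.0% of probe sets showed in vehicle and 11.3% in odor. Pool by pool, each of the 4 genes was lower in the library titled GFP+ in 8 of 8 pools, against 15.1% of all probe sets. The exact two-sided sign-flip permutation test over the 8 pools gave p = 0.0078 for each gene, the smallest it can give. The cells were sorted by GFP driven through S100a5, so a difference of S100a5 itself was to a degree set by the design. Its sort tests and its place in these counts are therefore a description. Over all tested probe sets the median difference was -0.13 in vehicle and -0.14 in odor. The 4 genes were chosen with earlier results of these data known, so the shares beside them are no independent comparison.

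The sort difference of the 4 genes was larger than that of general OSN markers. The mean of the 23 mature OSN markers was lower in libraries titled GFP+ by -0.28 ± 0.10 (SD, n = 8 pools), and Omp, the olfactory marker protein gene, by -0.19 ± 0.14. Both were also lower in 8 of 8 pools (exact sign-flip permutation p = 0.0078 each). As deposited, that count and p therefore do not set the 4 genes apart from general OSN markers, and the size of the difference does. After the marker mean of the same library was subtracted, the difference was -0.93 ± 0.23 for S100a5, -1.48 ± 0.48 for Pcp4l1, -0.70 ± 0.45 for Plcxd3 and -1.24 ± 0.27 for Lrrc3b. S100a5, Pcp4l1 and Lrrc3b stayed lower in 8 of 8 pools (exact sign-flip permutation p = 0.0078 each), which held for 3.49% of all probe sets treated the same way. Plcxd3 stayed lower in 7 of 8 (exact sign-flip permutation p = 0.0156), with odor pool 3 at 0.09. With every array centred on these markers in limma, S100a5 and Pcp4l1 kept their calls in both agents, Plcxd3 kept its call in vehicle, and in odor Plcxd3 (-0.55, limma adjusted p = 0.0838) and Lrrc3b (-1.21, limma adjusted p = 0.0916) lost theirs. This centring moved the median difference of all probe sets to 0.12 in vehicle and 0.19 in odor, and centring on array medians moved it to -0.50 in both.

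**Figure D2:**
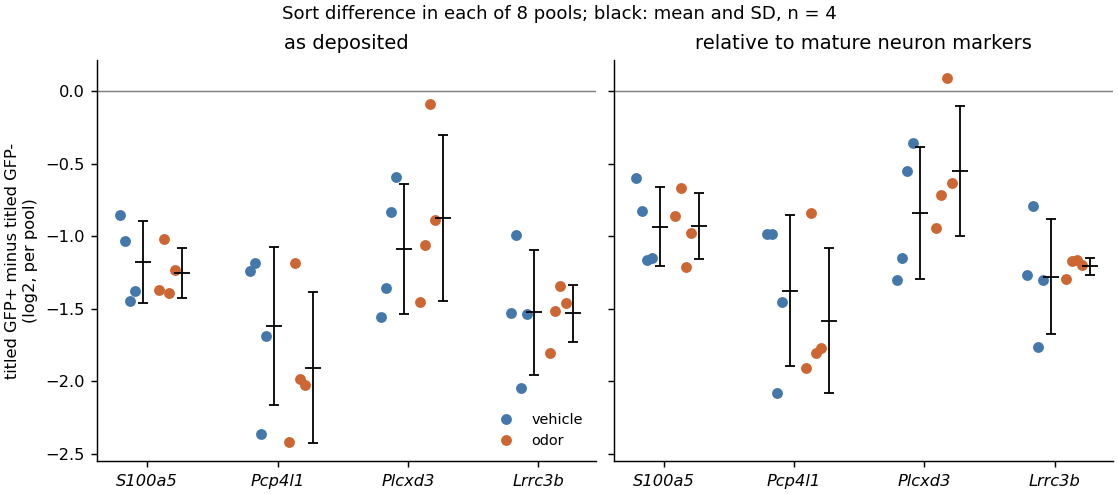
Difference in log2 signal within each of the 8 pools, titled GFP+ minus titled GFP-, for the 4 genes (horizontal axis), as deposited (left) and after subtracting the mature OSN marker mean (right); points are pools, coloured by agent, and black bars give mean and SD of 4 pools. As deposited all points lie below 0, from -2.42 for Pcp4l1 to -0.09 for Plcxd3, and on the right only Plcxd3 in odor pool 3 is above 0.

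The 4 genes did not differ by the same amount in each pool. Pcp4l1 differed more than S100a5 in 8 of 8 pools, by 0.55 ± 0.34 (SD) on the log2 scale. Lrrc3b differed more than S100a5 in 6 of 8 and Plcxd3 in 4 of 8. These are differences read by separate probe sets, whose response to the same change in RNA can differ. Whether the sort difference itself changed with the odor was tested as an interaction, in which the vehicle pools' difference is subtracted from that of the odor pools. It was -0.07 (SE 0.29) for S100a5, -0.29 (SE 0.42) for Pcp4l1, 0.21 (SE 0.32) for Plcxd3 and -0.01 (SE 0.73) for Lrrc3b, and 0 of 4 passed (limma adjusted p = 1 each), against 0.00450% of all probe sets. These SEs are from the fit without the pairing of a pool's libraries, so they also hold the spread between pools. Pool by pool, the sort difference of Lrrc3b had an SD of 0.43 in vehicle and 0.20 in odor. No interaction of the 4 genes passed with the pool as a block either.

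For each of the 4 genes the order of the group means, from high to low, was odor then vehicle among libraries titled GFP-, followed by odor then vehicle among those titled GFP+. In that order the step from vehicle titled GFP- down to odor titled GFP+ was the only one whose neighbouring groups did not overlap, for S100a5, Pcp4l1 and Plcxd3, while for Lrrc3b all neighbours overlapped. The steps between odor and vehicle within a sort were smaller. In libraries titled GFP- the odor minus vehicle difference was 0.35 for S100a5 (95% interval -0.08 to 0.79), 0.29 for Pcp4l1 (-0.34 to 0.92), 0.05 for Plcxd3 (-0.43 to 0.52) and 0.28 for Lrrc3b (-0.81 to 1.38). In libraries titled GFP+ it was 0.28 for S100a5 (-0.16 to 0.72), 0.00 for Pcp4l1 (-0.62 to 0.63), 0.26 for Plcxd3 (-0.22 to 0.74) and 0.28 for Lrrc3b (-0.82 to 1.37). On the means of the 2 libraries of a pool it was 0.32, 0.15, 0.15 and 0.28 for the genes in the same order. The intervals are from limma, are not adjusted for the number of tests, and all include 0.

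None of the 4 genes was called between odor and vehicle. The limma adjusted p was 1 for each in libraries titled GFP-, 0.968 or above in libraries titled GFP+ and 0.999 on pool means. The share of all probe sets called was 0.0180%, 0.00901% and 0.00901%, and 733, 1072 and 725 probe sets had an unadjusted p below 0.05. The upper bounds, from 0.52 for Plcxd3 to 1.38 for Lrrc3b in libraries titled GFP-, show how large a rise these 4 pools a group could have missed. Odor and vehicle libraries overlapped for each of the 4 genes in both sorts, while 1.09% of all probe sets had 4 odor libraries above 4 vehicle libraries in the fraction titled GFP- and 1.27% in the other.

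S100a5 in libraries titled GFP- came closest to a separation. All 4 odor libraries were above the vehicle library of the same number, but odor replicate 4 at 16.58 lay just below vehicle replicate 2 at 16.59 (exact two-sided permutation p = 0.0571). Relative to the mature OSN marker mean of the same library, S100a5 was 0.28 ± 0.21 (SD, n = 4) in vehicle and 0.64 ± 0.15 in odor, the ranges no longer overlapped, and the exact two-sided permutation p was 0.0286, the smallest that 4 against 4 can give. The same test was run for 4 genes in 3 sets of libraries on 4 scales, 48 in all, and this p is the lowest of them and is not adjusted. Of all probe sets, 1.00% had all 4 odor libraries above all 4 vehicle libraries on this scale. Relative to Omp alone the difference was 0.37, also with p = 0.0286 in the exact permutation test, while with arrays centred on their medians it was 0.35 with overlapping ranges (exact permutation p = 0.0571). In libraries titled GFP+ S100a5 relative to the markers differed by 0.36 with overlapping ranges (exact permutation p = 0.286), where 1.66% of probe sets were separated, and on pool means by 0.36 (exact permutation p = 0.143).

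**Figure D3:**
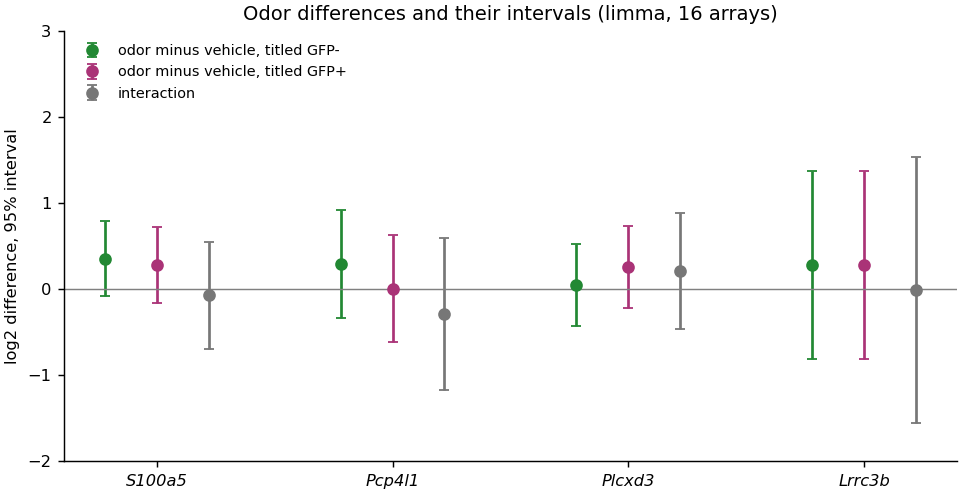
Odor minus vehicle difference in log2 signal of the 4 genes in the fraction titled GFP- and the fraction titled GFP+, and the interaction of odor and sort, as points with limma's 95% interval. All intervals include 0, and those of Lrrc3b are the widest, from -0.81 to 1.38 in the fraction titled GFP-. Those of the interaction are from the fit without the pairing of a pool's libraries.

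The wide intervals of Lrrc3b follow the pools. The mean of the 2 libraries of a pool ran from 12.69 to 15.05 for Lrrc3b, a range of 2.36, while its sort differences covered a range of 1.05. For S100a5 the pool means ran from 15.42 to 16.44, and for Omp their range was 0.22. Odor pool 2 and then vehicle pool 2 had the highest pool means of Lrrc3b. The same 2 pools, in the same order, were highest for Kirrel2, an adhesion molecule gene of OSN axons known to follow neuronal activity, whose pool means ran from 13.64 to 16.39, and for Kcng1, a potassium channel subunit gene, from 9.15 to 12.32. Odor pool 2 was also the highest of all 8 for S100a5, Pcp4l1 and Plcxd3.

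Likeness was measured over the 16 libraries as Pearson's r of deposited log2 signals, which contains the sort difference, and again after subtracting the group means. It is given as a description, since libraries share pools and the 2 sorts are separate clusters, and 11015 genes were compared. The 3 genes most like Lrrc3b were Kcng1 (r = 0.983, and 0.967 within groups), Noct (0.970 and 0.940) and Trim45 (0.968 and 0.982), and the values within groups were nearly as high as those across all libraries. Kirrel2 stood at 0.949 and 0.973. The 3 most like S100a5 were Dyrk4 (0.962 and 0.833), Efr3b (0.962 and 0.780) and F8 (0.957 and 0.852). For Pcp4l1 they were Olfr740 (0.954 and 0.793), Ubl3 (0.951 and 0.746) and Cyp26b1 (0.941 and 0.749), and for Plcxd3 Tmod2 (0.933 and 0.813), Dgkk (0.930 and 0.725) and Olfr1371 (0.928 and 0.702).

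**Figure D4:**
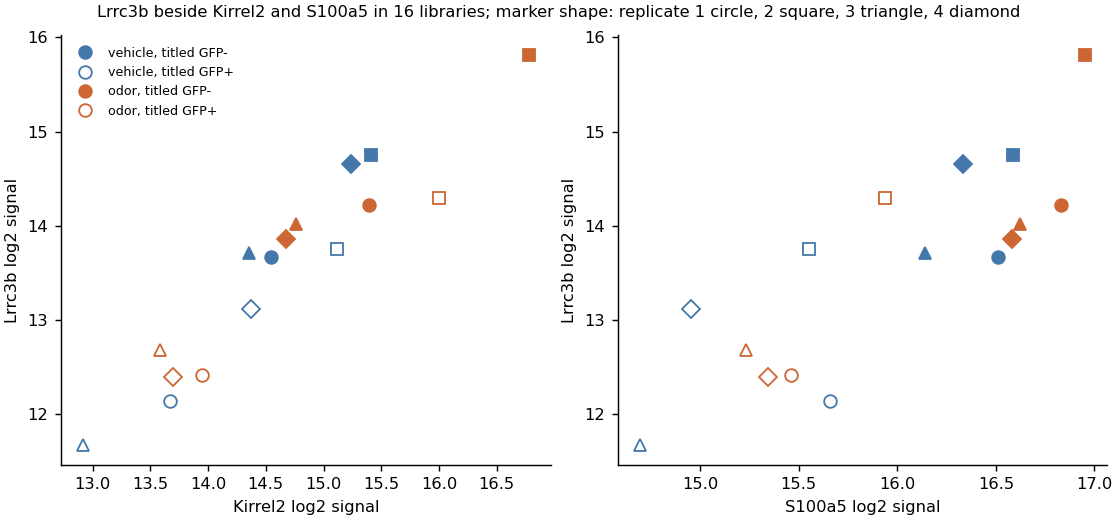
Log2 signal of Lrrc3b (vertical axes) against that of Kirrel2 (left) and S100a5 (right) in the 16 libraries, coloured by agent, filled for libraries titled GFP- and open for GFP+, with the marker shape giving the replicate. Libraries high for Kirrel2 are high for Lrrc3b within each group, while the points for S100a5 scatter more widely.

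Among the 4 genes the pair most alike was S100a5 and Pcp4l1, with r = 0.943 over all libraries and 0.733 within groups. S100a5 and Lrrc3b stood at 0.826 and 0.591, and S100a5 and Plcxd3 at 0.778 and -0.01. The last value pools unlike groups of 4, with r = 0.86 and 0.84 in vehicle and odor titled GFP-, and -0.68 and 0.38 in vehicle and odor titled GFP+. Inside 1 sort, 6 relations of another gene with S100a5 were tested over 8 libraries, and 0 passed after Benjamini-Hochberg adjustment. The strongest was Pcp4l1 in libraries titled GFP+, with Pearson's r = 0.775 (exact permutation p = 0.0242, adjusted p = 0.145) and Spearman's rho = 0.857 (exact permutation p = 0.0107, adjusted p = 0.0643). Pearson's r was 0.37 without the 2 libraries farthest from the median of S100a5. That cut also narrows the range of S100a5, so it cannot show whether the relation rested on these 2 libraries. Within the 4 vehicle and the 4 odor libraries r was 0.85 and 0.90. In libraries titled GFP- Pearson's r with S100a5 was 0.53 for Pcp4l1, 0.55 for Plcxd3 and 0.58 for Lrrc3b (exact permutation p from 0.135 to 0.179, adjusted p = 0.214 each), and Spearman's rho was 0.38, 0.52 and 0.60 (adjusted p from 0.393 to 0.428). Without the 2 farthest libraries r was 0.39, 0.14 and -0.21. In libraries titled GFP+ Plcxd3 stood at r = -0.16 and rho = -0.33, and Lrrc3b at 0.61 and 0.43 (exact permutation p from 0.110 to 0.697).

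Beyond the 4 genes, 12 more of a list of 17 activity-dependent OSN genes were measured. In vehicle 6 of these 12 were called lower in libraries titled GFP+, 1 higher, and 5 did not pass, with a median difference of -0.57 against -0.13 for all probe sets. In odor 5 were lower, 1 higher and 6 did not pass, with a median of -0.56 against -0.14. Of all probe sets 7.16% were called lower and 10.2% higher in vehicle, and 9.86% and 11.0% in odor. The list was also drawn up with earlier results of these data known, so these counts are a description. With arrays centred on the mature OSN markers, 3 of the 12 remained called lower in vehicle (Pcdh17, Epha5 and Cidea) and 4 in odor. Called higher there were 1 in vehicle (Calb2) and 2 in odor (Calb2 and Efna5). With the pool as a block 7 were called lower and 2 higher in vehicle, and 6 lower and 1 higher in odor. The shares of all probe sets above are from the fit without centring or block, so they are no measure for these counts. The numbers of all probe sets called with this centring stand in the last paragraph. In vehicle without the block the lower genes were Pcdh10 (-1.20) and Pcdh17 (-1.03), which encode protocadherins, Sema7a (-0.59), an axon guidance semaphorin, Epha5 (-1.04), an ephrin receptor, Cidea (-1.28) and Hdac9 (-0.56). The same genes except Hdac9 were lower in odor. Calb2, the gene of the calcium buffer calretinin, went the other way, with 4.47 in vehicle (limma adjusted p = 1.21e-09) and 4.27 in odor. Kirrel2 differed by -0.87 in vehicle and -1.10 in odor, which did not pass without the pairing of a pool's libraries (limma adjusted p = 0.321 and 0.183) and passed with the pool as a block (limma adjusted p = 0.00576 and 0.00123). It was lower in 8 of 8 pools, by -0.98 ± 0.38 (SD; exact sign-flip permutation p = 0.0078).

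Some genes of that list were called between odor and vehicle. Pcdh10 and Sema7a among them were also called lower between the sorts in both agents. Pcdh10, Camk2n1, an inhibitor of CaM kinase II, and Sema7a rose in libraries titled GFP-, by 2.98 (limma adjusted p = 0.00332), 1.64 (0.000798) and 0.93 (0.0342), and Sema7a did not pass when arrays were centred on the markers (limma adjusted p = 0.129). In libraries titled GFP+ Pcdh10 (2.56) and Camk2n1 (1.17) passed as well (limma adjusted p = 0.0384 for both), but neither call held under median centring (limma adjusted p = 0.0541 and 0.0546), Camk2n1 lost its call with a variance trend or the replicate block, and 0 or 1 of the pair passed when any 1 library was left out. Their odor response was known when the list was drawn up, so these counts are a description. S100a5, Pcp4l1 and Plcxd3 were called between the sorts and not with odor. Camk2n1 differed between the sorts by 0.01 in vehicle (limma adjusted p = 0.987) and by -0.47 in odor (limma adjusted p = 0.0611). Its mean vehicle signals of 7.46 and 7.47 lay under the 95th percentile of the negative controls, near the background of the array. Its odor libraries, at 9.34 or below, lay under that percentile too, which was 9.39 or more on every array. The odor rise of Camk2n1 was therefore also read near the background, and the filter on dim probe sets left this gene out.

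**Figure D5:**
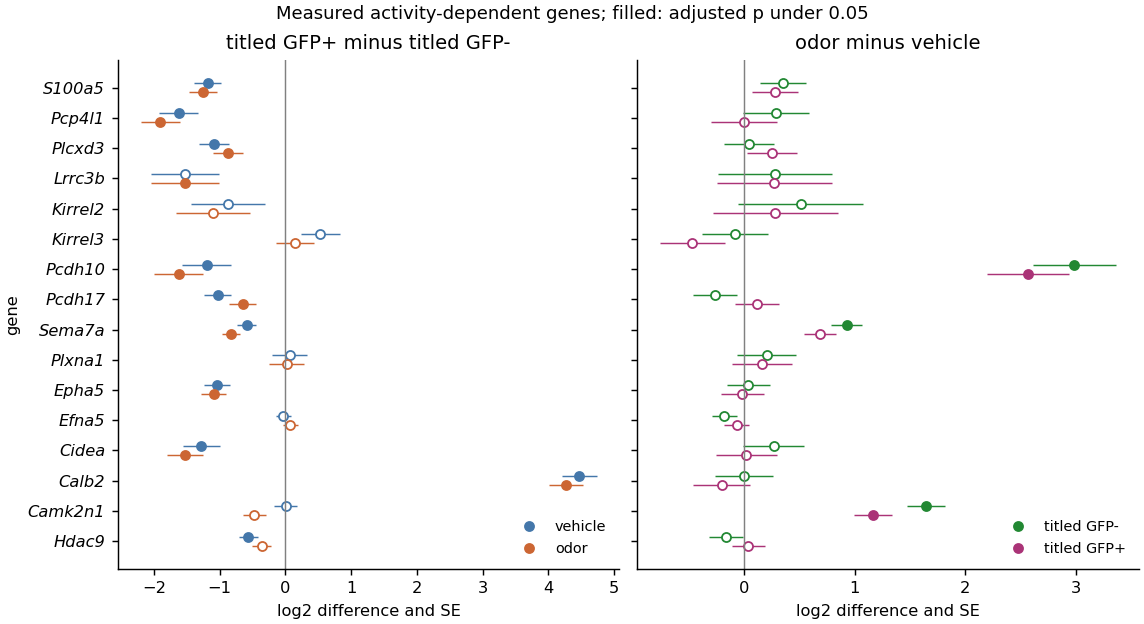
Differences in log2 signal with their SE for the 16 measured activity-dependent OSN genes, between the sorts in vehicle and odor (left) and between odor and vehicle in each fraction (right); filled points passed the adjusted p of 0.05. The 4 genes lie to the left of 0 in the sort panel and near 0 in the odor panel, where Pcdh10 and Camk2n1 lie farthest to the right.

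The S100 family held members called in both directions. S100a4 and S100a6, the coding genes on either side of S100a5 in the RefSeq order, were called higher in libraries titled GFP+, by 1.61 and 2.13 in vehicle and 1.16 and 2.68 in odor. Of the 18 measured S100 genes, S100a5 included, 6 were called higher and 2 lower in vehicle, and 6 higher and 5 lower in odor, with median differences of -0.11 and -0.14. Over all probe sets 10.2% were called higher and 7.16% lower in vehicle, and 11.0% and 9.86% in odor. Besides S100a5, the lower genes in odor were S100a3, S100a13 (-0.73), S100z (-0.69) and S100a2 (-0.66), of which S100a2 was not above the median of the negative controls in libraries titled GFP+. S100a8 and S100a9, the neutrophil calprotectin genes, had the largest differences, 8.88 and 8.92 in vehicle, and are themselves among the macrophage and neutrophil markers. S100a3 differed by -0.57 in vehicle (limma adjusted p = 0.167) and by -1.21 in odor (limma adjusted p = 0.00332). Of 5 relatives of the other 3 genes (Pcp4, Plcxd1, Plcxd2, Lrrc3 and Lrrc3c) 0 were called in either agent, and none was above the median of the negative controls in any library, so that no direction can be read for them. The unadjusted count of all probe sets with p below 0.05 was 6689 in vehicle and 7396 in odor.

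Of 21 measured genes for calcium sensors and calmodulin partners, 4 were called higher and 1 lower in libraries titled GFP+ in vehicle, and 4 higher and 1 lower in odor, with medians of -0.04 and -0.06. Among all probe sets 7.16% and 9.86% were called lower, and 10.2% and 11.0% higher, in vehicle and odor. No difference of the list from these shares was tested. Calb2, Camk2b (1.16 in vehicle and 1.25 in odor) and Ppp3ca (0.70 and 0.83), which encode calretinin, a CaM kinase II subunit and a calcineurin subunit, were among the higher genes. The lower gene was Camk2n2 in vehicle (-0.57), a second CaM kinase II inhibitor, and Camk4 in odor (-0.69), a calcium and calmodulin-dependent kinase that was not above the median of the negative controls in libraries titled GFP+.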

How the data were processed

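Per the labels' protocols, biotin-labelled cRNA came from 50 to 100 ng of RNA of sorted cells, on Clariom S arrays. The log2 signals are as the authors deposited them. The submitters' processing notes name Affymetrix Expression Console. Its background correction and normalization, and the array build, are not given in the sources. Of 28846 probe sets, 6640 controls were left out and 22206 tested, and 19572 had 1 gene symbol. Array signal over background, not read depth, limits precision.

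Groups came from titles. limma (3.58.1, R 4.3.3) fitted 4 group means of 16 arrays (12 residual degrees of freedom, prior 4.49), with Benjamini-Hochberg adjustment over all tested probe sets at 0.05. Single values were tested by exact permutation (scipy 1.17.1). Scripts were tested on simulated data. The members, gene lists and tests were chosen with earlier results of these data known. Genes named are the 4 members, the activity list, up to 4 called genes of each other list (or 2 uncalled) and the 3 most alike by r. The S100 family was taken by gene symbol. S100a2, S100a3, S100a4, S100a6, S100a13, S100z and the relatives beyond 2 were named after their values were seen, as neighbours or kin.

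The 2 libraries of a pool come from the same mice, and their deviations from the group means correlated in 8 of 8 pools (r from 0.158 to 0.399), so pool was used as a block beside the unblocked fit. Alternatives were 3 other scalings, a variance trend, a filter on dim probe sets, blocks and leaving out each library.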

Additional observations from a re-analysis of the deposited data

Results flagged for a closer look

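Groups of 4 libraries, and the 8 pool differences, were checked for a single value far from the rest, and 3 of 24 groups held one; chance gives about 1 in 20. Pcp4l1 in odor titled GFP- replicate 3 read 15.13, with the other 3 libraries at 15.78 to 15.84. Plcxd3 in vehicle titled GFP- replicate 3 read 8.18, with the other 3 at 8.48 to 8.51. Lrrc3b in odor titled GFP+ replicate 2 read 14.30, with the other 3 at 12.40 to 12.68. Odor replicate 2 was also the highest library of Lrrc3b among those titled GFP-, at 15.81.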

How the results depend on the processing

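The sort difference of S100a5 and Pcp4l1 kept its direction and call in both agents under each of 6 alternatives and without each library in turn, and that of Plcxd3 did so except under centring on mature OSN markers in odor (-0.55). The dim filter, which kept 7533 probe sets, left out Plcxd3. Lrrc3b in vehicle passed under quantile normalization (-1.53), median centring (-1.90), a variance trend (-1.52) and the replicate block (-1.52); in odor it was lost when centred on the markers (-1.21). Leaving out a library gave Lrrc3b -1.89 to -1.19 in vehicle (adjusted p from 0.0223 to 0.152, passing only without vehicle titled GFP+ replicate 2) and -1.98 to -1.09 in odor (adjusted p from 0.0091 to 0.144, lost in 6 of 8 fits). Odor and interaction values of the 4 genes passed in 0 of 92 alternative fits and 0 of 160 with a library or pool left out (lowest adjusted p = 0.693), though several changed sign. Lrrc3b's interaction became 0.0399 under quantile normalization and 0.0724 when centred on the markers, and S100a5's 0.0046 in the latter; with libraries left out they ran from -0.46 to 0.44 and from -0.25 to 0.0727. The odor difference ran from -0.10 to 0.25 (Plcxd3) and -0.16 to 0.49 (Lrrc3b) in libraries titled GFP-, from -0.29 to 0.20 (Pcp4l1) and -0.17 to 0.64 (Lrrc3b) in libraries titled GFP+, from -0.0304 to 0.33 (Pcp4l1) and -0.17 to 0.55 (Lrrc3b) on pool means, and from -0.10 to 0.57 for Lrrc3b relative to the markers.

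Probe sets called between sorts in vehicle numbered 3851 (2260 higher, 1591 lower), 15630 under median centring (1762 and 13868), 5102 under quantile normalization (2148 and 2954), 3594 when centred on the markers (3041 and 553) and 1510 with the dim filter. In odor they numbered 4638 (2449 and 2189), 15554 (1875 and 13679), 5634 (2334 and 3300), 4592 (4008 and 584) and 2070 (817 and 1253). With odor in libraries titled GFP+, 2 probe sets and 2 activity-dependent genes were called, 0 and 0 under median centring or the dim filter, 1 and 1 with a trend or the replicate block, and 0 to 6 and 0 to 1 with a library left out. On pool means 2 and 2 became 0 and 0 with the dim filter and 1 to 2 of each with a pool left out. The 1 interaction call became 0 with the replicate block and 1 to 2 with a library left out. The replicate number as a block between odor and vehicle, whose same-numbered libraries titled GFP- correlated at 0.0729 to 0.406 and those titled GFP+ at 0.174 to 0.278, changed no call of the 4 genes. The causes of these changes were not tested.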
